A study of Mus musculus with 180 samples.

Results

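The ribosome biogenesis genes described here are 48 genes whose products transcribe, modify, cut and assemble ribosomal RNA. They were taken by name from a list and not by their values. All 48 were among the 14825 genes of the deposited expression table, and all 48 were kept with the 10856 genes that passed a filter on low values, 1 TPM (a length-corrected unit of transcript abundance) or more in 10% of the cells of 1 or more populations. They were described across single cells of 4 mouse blood stem and progenitor populations, to see how far each population differed in the genes that build ribosomes.

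All cells came from mice of the C57BL/6 strain, and each sequenced library was 1 sorted cell. BM HSC (36 cells) and WT-MPP (41 cells, multipotent progenitors) were from Rosa LSL-Hoxb5-EGFP/+ mice at 8 weeks of age, in which a stop cassette precedes Hoxb5 and no Cre is present. FL HSC (56 cells) were haematopoietic stem cells with the same allele from embryos at Day14.5, the CD11b+CD150+ cells of the CD45.2+Lin-Sca1+c-kit+ fraction. The CD11b+CD48+SK cells (47 cells) were donor-derived cells of primary recipients, sorted at Week 8 after transplantation of MPP from Mx1cre/Rosa LSL-Hoxb5-EGFP/+ mice. The recipients were lethally irradiated CD45.1+ mice and received pIpC, which turns on the Mx1 promoter and with it Cre and Hoxb5, so that Hoxb5, pIpC, transplantation and the irradiated host cannot be told apart in these cells. Transplanted MPP without Hoxb5 are not among the 4 populations. The labels name bone marrow as the source of every cell, the FL HSC included. The labels tie no cell to an animal. Every population was therefore 1 sample, and no test was made between them.

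A ribosome is built mainly in the nucleolus. RNA polymerase I transcribes the precursor of ribosomal RNA, small nucleolar ribonucleoproteins (snoRNPs) modify it, and separate sets of assembly factors fold, cut and export the precursors of the small and the large subunit. In blood stem cells a low rate of protein synthesis is known to go with quiescence, and ribosome production is known to rise when cells grow and divide. Myc is a known activator of many of these genes, through the DNA sequence CACGTG among others.

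Values are TPM, an estimate of a transcript's share that corrects for its length and gives every cell the same sum, so levels could be compared between genes. Differences were taken between means over cells of log2(TPM+1), where a difference of 1 is about 2-fold and the pseudocount of 1 shrinks the differences of low genes. A gene was counted as present in a cell at 1 TPM or more, and shares of cells carry a 95% exact Clopper-Pearson interval for counting error alone. Read depth cannot be had from TPM and is unknown, and the number of genes per cell is given in its place. Its median was 5206.5 in FL HSC, 4441.5 in BM HSC, 3844 in WT-MPP and 4514 in the CD11b+CD48+SK cells. WT-MPP replicate 12 stood apart, with a size factor of 0.0612 over the 341 genes above 0 in every cell, against 0.708 to 1.38 in the other cells, and with Gapdh listed at 0. The comparisons with WT-MPP are given with and without it. Cd48 was present in 100% (95% interval 92.5 to 100%) of the CD11b+CD48+SK cells and Slamf1, which encodes CD150, in 63.9% (95% interval 46.2 to 79.2%) of BM HSC and 55.4% (95% interval 41.5 to 68.7%) of FL HSC. Itgam, which encodes CD11b, was present in 36.2% (95% interval 22.7 to 51.5%) of the CD11b+CD48+SK cells and 16.1% (95% interval 7.62 to 28.3%) of FL HSC, although both were sorted as CD11b+, and in 4.88% of WT-MPP and 2.78% of BM HSC. Cd48 was also in 17.1% of WT-MPP and 17.9% of FL HSC. Hoxb5 was present in 57.1% of FL HSC, 22.2% of BM HSC, 17.1% of WT-MPP and 91.5% of the CD11b+CD48+SK cells, and the deposited values do not separate the transgene from the native gene. Immediate early and heat shock genes, which respond to tissue dissociation, had a median summed level of 1036 TPM in FL HSC, 5819.8 in BM HSC, 2594 in WT-MPP and 474 in the CD11b+CD48+SK cells, with all 11 of the list in the table. The 11 erythroid markers in the table, of 18 listed, had a median summed level of 5664 TPM in FL HSC, 3556 in BM HSC, 3667 in WT-MPP and 748 in the CD11b+CD48+SK cells, and Epb4.2 was in no cell outside FL HSC. The summed hepatocyte markers had a median of 0 TPM in every population. The part of the first 2 lists in the results was not tested.

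In the GENCODE M21 annotation of GRCm38 (the mm10 build named in the submitters' processing notes), the members lay on 17 chromosomes. Npm1 lay at chr11:33152287-33163206 on the minus strand, Nop56 at chr2:130274430-130279313 on the plus strand and Ncl at chr1:86344719-86359400 on the minus strand. Within the bounds of 7 members lay 21 genes of small nucleolar RNAs, the guides of ribosomal RNA modification, with 5 in Nop56, 4 in Nop58, 3 each in Ncl, Gnl3 and Wdr43, 2 in Tsr1 and 1 in Dkc1. More than 10% of the exonic bases were shared with other genes in 3 members, at 32.3% for Tsr1, 20.9% for Noc2l and 11.5% for Utp14a, so reads of these genes may have been split or joined with those of their neighbours.

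Promoters were read because Myc differed widely between the populations, as given further on. RefSeq promoters of GRCm38.p6 (300 bases, from 250 before to 50 after the start) were matched by symbol for 43 of the 48 members. Those of Fbl, Npm1, Rrp12, Bop1 and Rrs1 were not matched. The motif CACGTG, which is its own reverse complement so that a search covers both strands, was in the promoters of 9 of the 43 members (20.9%). It was in 8.09% of all 27025 genes with a promoter and in 12.3% of the 8061 of them that were also among the filtered genes. Of the members with the motif, the promoters of Nmd3, the adaptor that carries the large subunit out of the nucleus, and Nop2, a methyltransferase of the large subunit's RNA, are shown because these genes had the largest differences of the CD11b+CD48+SK cells from WT-MPP. That of Wdr43, a small subunit factor, is shown because it alone had a difference of 1 or more in the other direction. These 3 were picked after their values were seen. The region of Nmd3 is chr3:69721805-69722104, that of Nop2 is chr6:125131633-125131932 and that of Wdr43 is chr17:71615965-71616264, all on the plus strand and written 5′ to 3′, with the motif in capitals.
Nmd3: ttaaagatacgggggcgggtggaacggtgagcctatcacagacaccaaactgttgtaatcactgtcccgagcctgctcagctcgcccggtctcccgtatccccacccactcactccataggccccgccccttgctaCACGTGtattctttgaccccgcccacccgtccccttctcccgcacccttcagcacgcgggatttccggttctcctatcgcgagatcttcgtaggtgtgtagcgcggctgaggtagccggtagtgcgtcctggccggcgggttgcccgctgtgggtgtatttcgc
Nop2: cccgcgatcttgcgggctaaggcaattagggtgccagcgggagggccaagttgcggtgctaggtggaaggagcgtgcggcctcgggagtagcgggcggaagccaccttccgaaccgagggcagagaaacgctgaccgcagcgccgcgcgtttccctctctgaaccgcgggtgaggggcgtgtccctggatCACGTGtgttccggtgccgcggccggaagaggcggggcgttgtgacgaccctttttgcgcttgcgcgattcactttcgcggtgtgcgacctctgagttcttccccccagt
Wdr43: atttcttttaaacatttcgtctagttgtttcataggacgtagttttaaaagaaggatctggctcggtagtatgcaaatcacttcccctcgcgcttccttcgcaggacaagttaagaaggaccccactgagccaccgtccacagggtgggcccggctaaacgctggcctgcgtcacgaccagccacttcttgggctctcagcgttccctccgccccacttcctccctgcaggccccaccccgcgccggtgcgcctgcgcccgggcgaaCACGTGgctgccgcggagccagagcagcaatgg
The motif began 114 bases before the start in Nmd3 and 60 bases before it in Nop2, while in Wdr43 it lay after the start. The median difference over the 9 members with the motif and over the 34 without it was 0.80 and 0.99 for the CD11b+CD48+SK cells minus WT-MPP, 0.29 and 0.36 minus BM HSC and -0.39 and -0.34 minus FL HSC. It was 0.45 and 0.58 for FL HSC minus BM HSC, 1.70 and 1.28 for FL HSC minus WT-MPP and -0.50 and -0.68 for WT-MPP minus BM HSC, so neither group was the further from 0 throughout. A match of these letters is a description of the sequence and not a bound site.

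A cell held between 13 and 45 of the 48 members at 1 TPM or more. The number of members per cell had a median of 33 in FL HSC, 28 in BM HSC, 24 in WT-MPP and 31 in the CD11b+CD48+SK cells. The ranges overlapped between all 4 populations, at 21 to 45, 15 to 43, 13 to 35 and 18 to 45 members in the same order. The WT-MPP cells were thus the ones with the fewest members. They also had the fewest genes of any kind, and per 1000 genes of a cell the median number of members was 6.19 in FL HSC, 6.16 in BM HSC, 6.11 in WT-MPP and 6.83 in the CD11b+CD48+SK cells. The summed level of the 48 members had a median of 6979 TPM in FL HSC, 6237 in BM HSC, 5527 in WT-MPP and 6908 in the CD11b+CD48+SK cells, between 0.553 and 0.698% of all TPM in a cell.

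**Figure D1:**
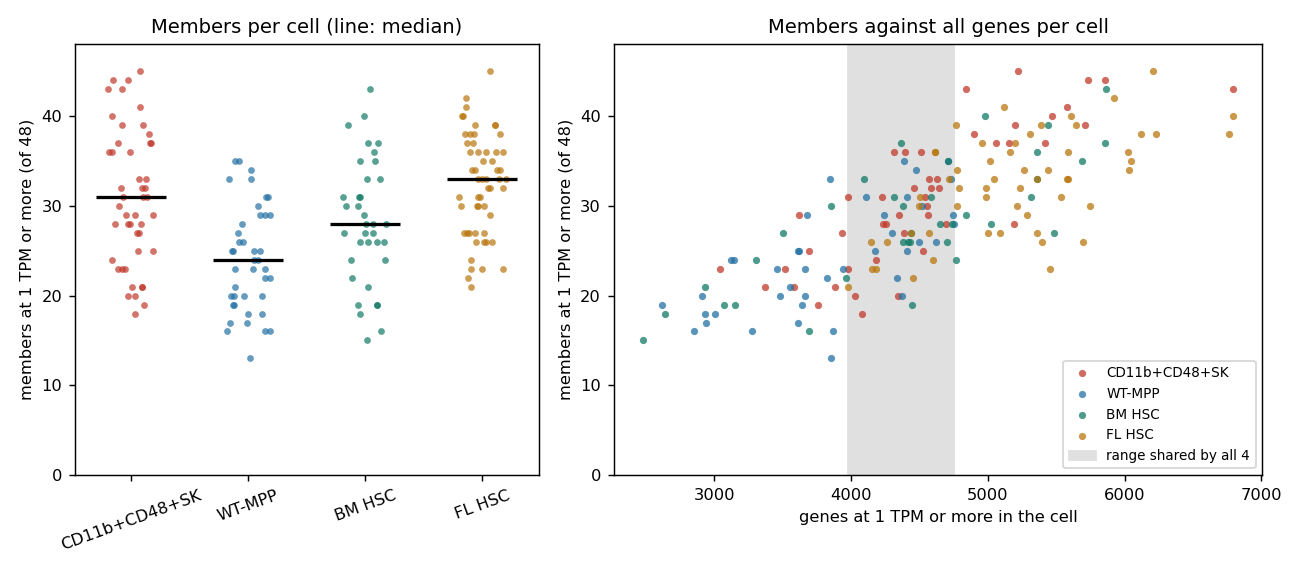
Members at 1 TPM or more in each cell by population (left, 1 point per cell, line at the median) and against the number of genes at 1 TPM or more in the same cell (right), with the range of genes per cell that all 4 populations cover in grey. WT-MPP had the lowest median, 24 members, and cells with more genes held more members in every population.

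Because the number of members followed the number of genes, each comparison was also made in the cells whose number of genes lay in the range that every population covered, 3974 to 4751 genes. This left 24 CD11b+CD48+SK cells, 17 WT-MPP, 14 BM HSC and 14 FL HSC, and WT-MPP replicate 12 was not among them. In these cells the median number of members was 26.5 in FL HSC, 28 in BM HSC, 29 in WT-MPP and 29.5 in the CD11b+CD48+SK cells, and the summed level of the members had a median of 6478 TPM in FL HSC, 6237 in BM HSC, 6434 in WT-MPP and 6362 in the CD11b+CD48+SK cells. The fewer members and the lower summed level of WT-MPP were not seen at this like number of genes. The FL HSC in this range were their cells with the fewest genes and the WT-MPP those with the most. These cells are part of all cells, so a member picked for its difference over all cells tends to keep its direction among them. The share of all filtered genes that kept their direction is not given, so the counts below of members that did have no reference.

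Against WT-MPP, the CD11b+CD48+SK cells were higher for 43 of the 48 members, where 62.0% of all filtered genes were higher. The difference was 1 or more for 24 members (19.01% of all filtered genes) and -1 or below for 1 member, Wdr43 (5.01% of all filtered genes). The median difference was 0.99 over the members and 0.21 over all filtered genes. Nop16 (2.31), Rrs1 (2.20), Polr1e (2.18), Rrp9 (2.07) and Wdr12 (1.96) had the largest differences, and Wdr43 (-1.01), Ddx10 (-0.34), Polr1b (-0.26), Wdr75 (-0.024) and Heatr1 (-0.0051) the smallest. Without WT-MPP replicate 12 the median was 0.96 and the number of members at 1 or more was 23. In the cells of the shared range the median was 0.082 over the members and -0.055 over all filtered genes, and 25 members were higher where 45.2% of all filtered genes were. Of the 24 members, 19 kept their direction there and 6 (Imp3, Nmd3, Nop2, Polr1c, Rrp9 and Utp14a) were still 1 or more apart (10.999% of all filtered genes), while 5 members were 1 or more lower there (15.8% of all filtered genes).

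Against BM HSC, the CD11b+CD48+SK cells were 1 or more higher for 7 members (13.4% of all filtered genes) and 1 or more lower for 3 members (11.8% of all filtered genes). The share of members that were higher was near that of all filtered genes. The median difference was 0.38, against -0.0010 over all filtered genes, and 0.10 in the shared range. Higher were Ebna1bp2 (1.77), Bop1 (1.65), Noc4l (1.62), Rrs1 (1.59) and Rrp9 (1.396), with Polr1c and Tsr1 the others of the 7. Lower were Polr1b (-1.15), Ddx10 (-1.02) and Nip7 (-1.001). All 10 kept their direction in the shared range and in the log2 of the mean TPM, both of which draw on the cells that picked them. They were still 1 or more apart there for Bop1, Ebna1bp2, Noc4l, Rrp9 and Rrs1 and, in the other direction, for Polr1b, Ddx10 and Nip7, among the 6 members higher (14.2% of all filtered genes) and 7 lower (17.7% of all filtered genes) by 1 or more in that range.

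Against FL HSC, the CD11b+CD48+SK cells were 1 or more higher for 1 member, Utp14a (4.02% of all filtered genes), and 1 or more lower for 9 members (20.9% of all filtered genes). The 9 of 48 members were a share near that of all filtered genes. The median difference was -0.24 over the members and -0.32 over all filtered genes. The differences furthest below 0 were those of Polr1c (-1.92), Pes1 (-1.61), Mrto4 (-1.31), Nip7 (-1.20) and Wdr75 (-1.18). In the shared range the median was 0.019, while all 9 members that were lower and Utp14a kept their direction there. Within that range 7 members were 1 or more higher (11.04% of all filtered genes) and 8 were 1 or more lower (19.2%).

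FL HSC were higher than BM HSC by 1 or more for 19 members (25.6% of all filtered genes), and no member was 1 or more lower (5.44% of all filtered genes). The median difference was 0.58 over the members and 0.31 over all filtered genes. Polr1c (3.23), Mrto4 (2.20), Wdr12 (1.87), Noc4l (1.74) and Rrp9 (1.66) had the largest differences, and Utp15 (-0.98), Polr1b (-0.71), Utp14a (-0.59), Ncl (-0.53) and Wdr43 (-0.37) the smallest. In the shared range the median was -0.037, and 14 of the 19 members kept their direction. There 10 members were 1 or more higher (19.5% of all filtered genes) and 9 were 1 or more lower (15.7%). FL HSC were higher than WT-MPP by 1 or more for 30 members (33.9% of all filtered genes), with no member 1 or more lower (3.08% of all filtered genes). That median was 1.28 against 0.56 over all filtered genes, 1.27 without WT-MPP replicate 12, and 0.19 in the shared range, where 23 of the 30 kept their direction. In that range 13 members were 1 or more higher (18.5% of all filtered genes) and 10 were 1 or more lower (14.8%).

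WT-MPP were lower than BM HSC by 1 or more for 12 members (14.49% of all filtered genes), and no member was 1 or more higher (2.67% of all filtered genes). Gar1 (-2.29), Nip7 (-1.86), Nop2 (-1.62), Imp3 (-1.61) and Nop16 (-1.48) lay furthest below 0, and Mrto4 (0.78), Bop1 (0.48), Ltv1 (0.42), Ebna1bp2 (0.36) and Wdr43 (0.24) furthest above. The median difference was -0.65 over the members and -0.22 over all filtered genes, -0.59 without WT-MPP replicate 12 and -0.16 in the shared range. In the shared range 7 members were 1 or more higher (15.1% of all filtered genes) and 8 were 1 or more lower (13.2%). These 6 comparisons share populations and are not independent of each other. WT-MPP had the lowest mean for 37 of the 48 members, against 41.02% of all filtered genes. FL HSC had the highest for 25 members, against 48.6%, and the CD11b+CD48+SK cells for 15 members, against 19.5%.

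**Figure D2:**
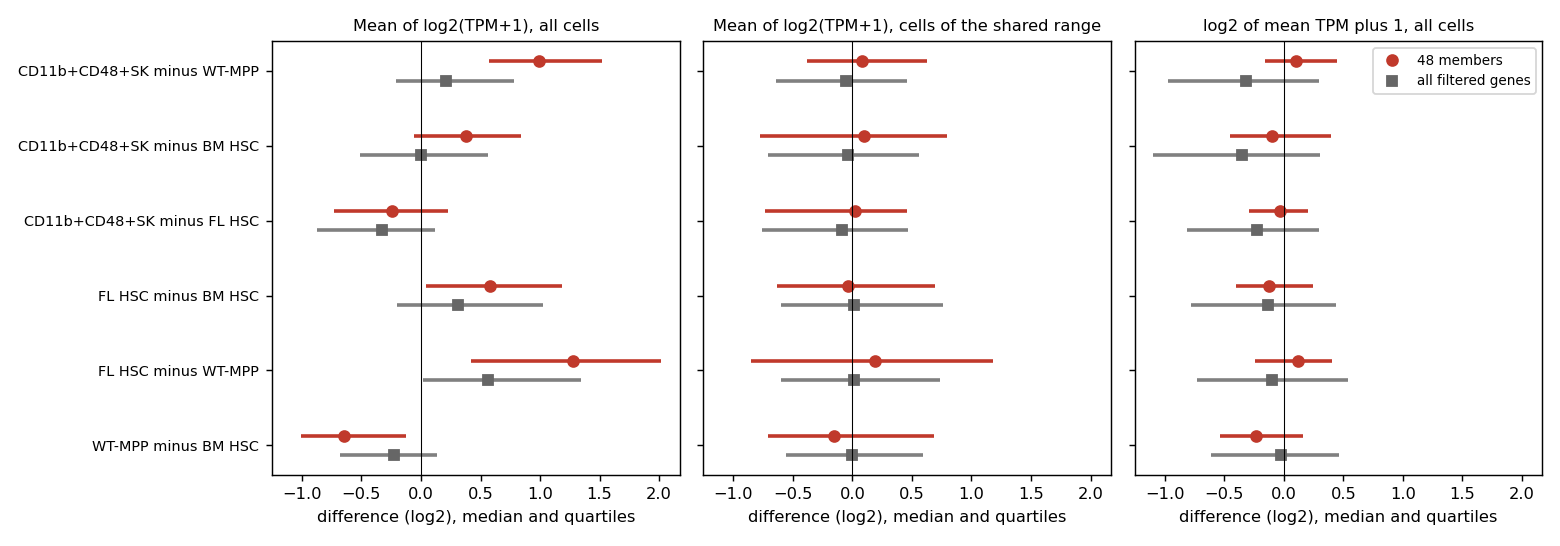
Median (marker) and quartiles (line) of the difference between populations over the 48 members (red) and all 10856 filtered genes (grey), on the log2 scale, for all cells (left), the cells of the shared range of genes per cell (middle) and the log2 of mean TPM plus 1 (right). The members' median of 0.99 for the CD11b+CD48+SK cells minus WT-MPP is 0.082 in the middle plot and 0.10 in the right one.

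The mean of log2(TPM+1) gives weight to how many cells hold a gene, and the mean TPM to the amount of it. On the log2 of the mean TPM plus 1, the median differences of the members were 0.10 for the CD11b+CD48+SK cells minus WT-MPP, -0.10 minus BM HSC and -0.035 minus FL HSC. All filtered genes had -0.32, -0.35 and -0.22 in the same order. FL HSC minus BM HSC turned to -0.13 on this scale, where all filtered genes had -0.13. The members' median was 0.12 for FL HSC minus WT-MPP (all filtered genes -0.10) and -0.23 for WT-MPP minus BM HSC (all filtered genes -0.022). The members' difference from WT-MPP was smaller on this scale and stayed above that of all filtered genes. Among cells with the gene, the mean log2 TPM of the CD11b+CD48+SK cells minus WT-MPP had a median of 0.39 over the members, but this became -0.41 when a cell was counted from 5 TPM. All 6 comparisons of this kind changed sign with that threshold, so no order of levels within positive cells is drawn.

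**Figure D3:**
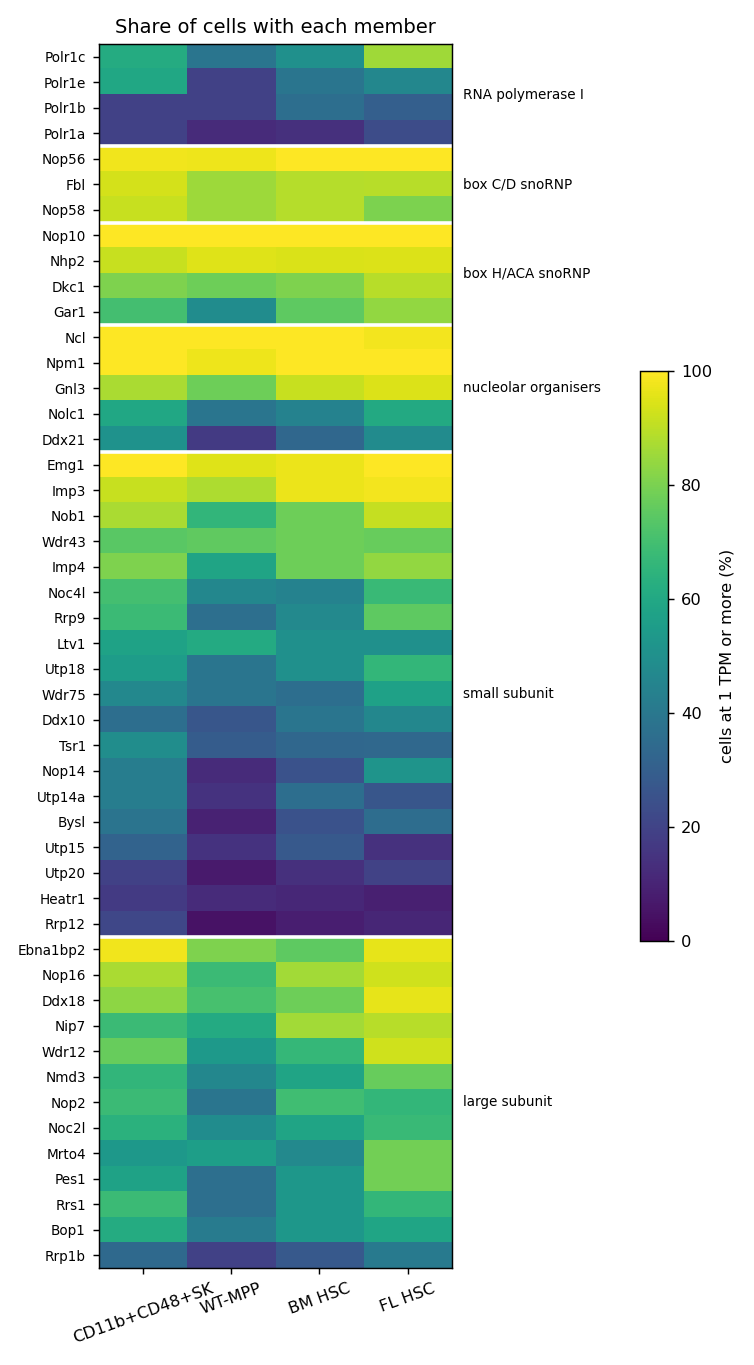
Share of cells (%) at 1 TPM or more for each of the 48 members (rows, grouped by role and ordered by share within a role) in each population (columns). Nop56, Nhp2, Nop10, Ncl, Npm1 and Emg1 are each in 90% or more of cells in all populations, while Rrp12, Heatr1 and Utp20 are in at most 21.3% of the cells of any.

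Shares of cells are over all cells unless the shared range is named, and their order often differed there. WT-MPP had the smallest share, ties included, for 36 of the 48 members over all cells and for 12 in the shared range, and the largest for 4 and 19. The same count over all filtered genes is not given. The lowest mean was in WT-MPP for 37 of the 48 members, a larger share than the 41.02% of all filtered genes. Without that count over all filtered genes, the counts of shares are not read as particular to the members.

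The RNA polymerase I subunits were of unlike level. Polr1a, the largest subunit, was present in 23.2% of FL HSC, 13.9% of BM HSC, 12.2% of WT-MPP and 19.1% of the CD11b+CD48+SK cells, and Polr1b, the second-largest, in 30.4% of FL HSC, 36.1% of BM HSC, 19.5% of WT-MPP and 19.1% of the CD11b+CD48+SK cells. Polr1c, a subunit that RNA polymerase III also uses, was present in 85.7% (95% interval 73.8 to 93.6%) of FL HSC, 50% (95% interval 32.9 to 67.1%) of BM HSC, 39.02% (95% interval 24.2 to 55.5%) of WT-MPP and 61.7% (95% interval 46.4 to 75.5%) of the CD11b+CD48+SK cells. Its lowest, median and highest values over cells were 0, 108 and 446 TPM in FL HSC and 0, 0.89 and 436 TPM in BM HSC. In WT-MPP these were 0, 0.599 and 487 TPM, and the CD11b+CD48+SK cells had 0, 53.9 and 317 TPM. FL HSC were the population with the most Polr1c-positive cells, and every population had cells at 0. The difference of FL HSC was 3.23 from BM HSC and 3.44 from WT-MPP, and that of the CD11b+CD48+SK cells from FL HSC was -1.92. Over the cells of the shared range these were 1.36, 1.995 and -0.92, and 78.6% of FL HSC there held Polr1c against 47.1% of WT-MPP. On the log2 of the mean TPM the 3 differences were 0.98, 1.01 and -0.63. The mean of Polr1c was 135 TPM in FL HSC, 67.8 in BM HSC, 66.3 in WT-MPP and 87.0 in the CD11b+CD48+SK cells. Polr1e, which helps the polymerase to start and elongate, was present in 46.4% (95% interval 32.99 to 60.3%) of FL HSC, 38.9% (95% interval 23.1 to 56.5%) of BM HSC, 19.5% (95% interval 8.82 to 34.9%) of WT-MPP and 59.6% (95% interval 44.3 to 73.6%) of the CD11b+CD48+SK cells. Its mean level was 28.2 TPM in FL HSC, 42.1 in BM HSC, 23.5 in WT-MPP and 39.5 in the CD11b+CD48+SK cells. The CD11b+CD48+SK cells had the largest share of Polr1e-positive cells. Its difference of the CD11b+CD48+SK cells against WT-MPP was 2.18, and 0.72 in the shared range.

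The 3 box C/D snoRNP proteins are the core of the particles that methylate ribosomal RNA at sites set by their small nucleolar RNAs, and were present in most cells. Nop56, a core scaffold, had a mean of 365 TPM in FL HSC, 345 in BM HSC, 279 in WT-MPP and 286 in the CD11b+CD48+SK cells. The lowest, median and highest cells for Nop56 were at 2.13, 320.4 and 966 TPM in FL HSC and 1.45, 289.5 and 1135 TPM in BM HSC. WT-MPP had 0, 239 and 1020.1 TPM, and the CD11b+CD48+SK cells had 0.498, 281 and 812 TPM. Its ranges overlapped throughout. The difference of FL HSC from WT-MPP was 1.54, but 0.40 in the shared range and 0.39 on the log2 of the mean TPM, and that from BM HSC was 1.02 but -0.44 in the shared range. Fbl, the methyltransferase itself, had its highest mean in WT-MPP, at 156 TPM in FL HSC, 207 in BM HSC, 247 in WT-MPP and 229.7 in the CD11b+CD48+SK cells. Nop58, the partner of Nop56, had a median of 29.6 TPM in WT-MPP and between 89.1 and 179.9 TPM in the other populations. The difference of WT-MPP from BM HSC was -1.18 for Nop58 and -1.04 in the shared range.

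The 4 box H/ACA snoRNP proteins are the core of the particles that turn uridine into pseudouridine, and Nop10 was the most abundant of them. Over cells, the lowest, median and highest values of Nop10 were 79.2, 569.6 and 1318 TPM in FL HSC and 40.01, 577 and 1871 TPM in BM HSC. For WT-MPP they were 183, 506 and 3982 TPM, and the CD11b+CD48+SK cells had 256, 984 and 2265 TPM. Every cell held Nop10, the smallest protein of the complex, and the CD11b+CD48+SK cells had the highest median. Their difference was 0.85 from FL HSC, 0.81 from BM HSC and 0.87 from WT-MPP. At the like number of genes these values were 0.90, 0.87 and 0.78, and on the log2 of the mean they were 0.89, 0.61 and 0.66. The level of Nop10 in the CD11b+CD48+SK cells was thus above that of each other population under all 3 ways of averaging, by less than 2-fold in each. Nhp2, an RNA-binding protein of the complex, had a mean of 237 TPM in FL HSC, 279 in BM HSC, 325 in WT-MPP and 366 in the CD11b+CD48+SK cells. Its difference of the CD11b+CD48+SK cells against WT-MPP was 0.82 over all cells and -1.10 in the shared range, so that its direction turned. Gar1, a core protein of the complex, was present in 83.9% (95% interval 71.7 to 92.4%) of FL HSC, 75% (95% interval 57.8 to 87.9%) of BM HSC, 48.8% (95% interval 32.9 to 64.9%) of WT-MPP and 70.2% (95% interval 55.1 to 82.7%) of the CD11b+CD48+SK cells. WT-MPP had the smallest share over all cells but the largest in the shared range, where Gar1 was in 78.6% of FL HSC, 78.6% of BM HSC, 88.2% of WT-MPP and 75% of the CD11b+CD48+SK cells. The difference of WT-MPP from BM HSC was -2.29, and -0.67 in the shared range. For the CD11b+CD48+SK cells against WT-MPP, Gar1 had a difference of 1.605 that became -0.30 in the shared range. Dkc1, the pseudouridine synthase, which also belongs to telomerase, was -1.17 in the CD11b+CD48+SK cells minus FL HSC (-1.80 in the shared range and -0.28 on the log2 of the mean TPM) and 1.02 in FL HSC minus BM HSC. The latter became -0.38 in the shared range.

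Npm1, the histone chaperone that organises the granular part of the nucleolus, had the highest level of all 48 members. For Npm1, the lowest, median and highest cells had 1036, 2182 and 3777 TPM in FL HSC and 154, 981 and 5499.9 TPM in BM HSC. The WT-MPP cells had 0, 658 and 3132 TPM, and the CD11b+CD48+SK cells had 496, 1621 and 2898 TPM. The FL HSC were highest, the lowest FL HSC lying above the median of BM HSC and of WT-MPP, and the ranges overlapped. Mean levels were 2184 TPM in FL HSC, 1249.8 in BM HSC, 849 in WT-MPP and 1615 in the CD11b+CD48+SK cells. The difference of FL HSC was 2.002 from WT-MPP and 1.13 from BM HSC, and 1.44 and 1.05 in the shared range. The CD11b+CD48+SK cells differed by -0.46 from FL HSC, by 0.66 from BM HSC and by 1.54 from WT-MPP. The cells of the shared range gave -0.58, 0.47 and 0.86, and without WT-MPP replicate 12 the last of the former was 1.41. The order of FL HSC, CD11b+CD48+SK cells, BM HSC and WT-MPP was the same for the mean TPM, the mean of log2(TPM+1) and the shared range, and whether neighbours in it differ beyond the spread between animals cannot be told, since no animal is named.

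Ncl, which binds nascent ribosomal RNA, had another order than Npm1. Its lowest, median and highest values over cells were 0.27, 79.3 and 306 TPM in FL HSC and 1.45, 129.5 and 408 TPM in BM HSC. In WT-MPP these were 1.56, 102 and 271 TPM, and the CD11b+CD48+SK cells had 2.01, 115 and 320.4 TPM. BM HSC had the highest and FL HSC the lowest median, and the difference of FL HSC from BM HSC was -0.53, or -1.20 in the shared range. Gnl3 (nucleostemin), a nucleolar GTPase, had means between 189 and 213 TPM. Its median over cells was 12.3 TPM in WT-MPP and at least 140.4 TPM elsewhere. The difference of FL HSC from WT-MPP was 2.13 for Gnl3, and 2.097 in the shared range. Nolc1, a snoRNP chaperone, was present in 60.7% of FL HSC, 44.4% of BM HSC, 39.02% of WT-MPP and 59.6% of the CD11b+CD48+SK cells. In the shared range it was in 28.6% of FL HSC, 42.9% of BM HSC, 52.9% of WT-MPP and 54.2% of the CD11b+CD48+SK cells. The difference of FL HSC from WT-MPP in Nolc1 turned from 1.29 to -1.08. Ddx21, a helicase of the nucleolus, was present in 48.2% of FL HSC, 33.3% of BM HSC, 17.1% of WT-MPP and 51.1% of the CD11b+CD48+SK cells, while its mean TPM was highest in WT-MPP, at 14.2 TPM against 8.73 to 11.6 TPM in the others. Without the highest cell of each population it was 8.83 TPM in WT-MPP and 9.41 TPM in BM HSC, which were then highest.

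**Figure D4:**
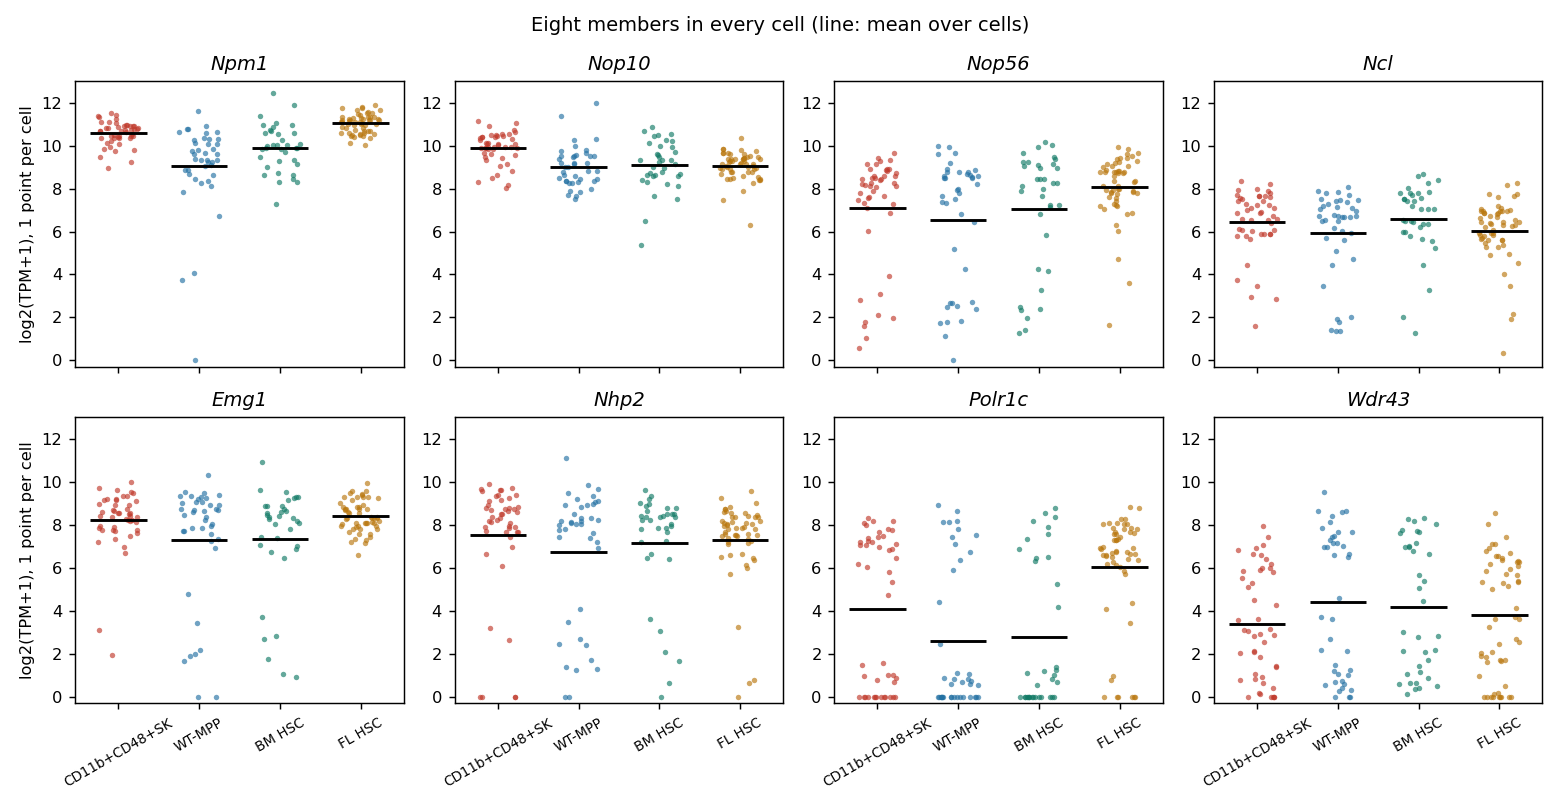
log2(TPM+1) of 8 members in every cell (1 point per cell, line at the mean over cells) in each population. Npm1 and Nop10 are at high level in nearly all cells, whereas Polr1c and Wdr43 are split between cells near 0 and cells at a high level.

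The 19 small subunit factors are parts of the small subunit processome, which folds and cuts the precursor RNA, and factors of later maturation and export. Compared with WT-MPP, 9 of them were 1 or more higher in the CD11b+CD48+SK cells (19.01% of all filtered genes) and Wdr43 was 1 or more lower (5.01%). Their median difference was 0.91, and -0.030 in the shared range, where 9 were above 0 and 10 below. Emg1, a methyltransferase that modifies the small subunit's RNA, was the most abundant, with a mean of 381 TPM in FL HSC, 348 in BM HSC, 354 in WT-MPP and 383 in the CD11b+CD48+SK cells. Its lowest value was 94.5 TPM in FL HSC, and 0 in WT-MPP. Imp3, which joins the precursor to its guide RNA, had a mean of 289 TPM in FL HSC, 317 in BM HSC, 198 in WT-MPP and 269 in the CD11b+CD48+SK cells. The difference of WT-MPP from BM HSC was -1.61 for Imp3, and -1.56 in the shared range.

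Wdr43, a processome factor, and Heatr1 were the 2 members with their highest mean of log2(TPM+1) in WT-MPP. The lowest, median and highest cells for Wdr43 were at 0, 14.3 and 370.2 TPM in FL HSC and 0.0976, 14.02 and 314 TPM in BM HSC. WT-MPP had 0, 23.3 and 744 TPM, and the CD11b+CD48+SK cells had 0, 7.31 and 245 TPM. It was present in 76.8% of FL HSC, 77.8% of BM HSC, 75.6% of WT-MPP and 74.5% of the CD11b+CD48+SK cells, and in the shared range in 57.1% of FL HSC, 92.9% of BM HSC, 82.4% of WT-MPP and 75% of the CD11b+CD48+SK cells. Mean levels were 47.5 TPM in FL HSC, 80.5 in BM HSC, 114 in WT-MPP and 35.4 in the CD11b+CD48+SK cells. The CD11b+CD48+SK cells were thus lowest and WT-MPP highest. The difference between them was -1.01 over all cells, -1.12 without WT-MPP replicate 12, -1.94 in the shared range and -1.66 on the log2 of the mean TPM. Wdr43 also holds 3 small nucleolar RNA genes, and how reads from them were counted is not given in the sources used here.

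Rrp9, a protein of the U3 snoRNP, which acts in the early cutting of the precursor, was present in 75% (95% interval 61.6 to 85.6%) of FL HSC, 47.2% (95% interval 30.4 to 64.5%) of BM HSC, 36.6% (95% interval 22.1 to 53.1%) of WT-MPP and 68.1% (95% interval 52.9 to 80.9%) of the CD11b+CD48+SK cells. Over cells, the lowest, median and highest values of Rrp9 were 0, 103 and 390.0 TPM in FL HSC and 0, 0.779 and 401 TPM in BM HSC. For WT-MPP they were 0, 0.48 and 851 TPM, and the CD11b+CD48+SK cells had 0, 90.8 and 502 TPM. It had medians below 1 TPM in WT-MPP and BM HSC and above 90 TPM in the other populations. Its mean was 94.1 TPM in FL HSC, 81.7 in BM HSC, 80.9 in WT-MPP and 109 in the CD11b+CD48+SK cells. The CD11b+CD48+SK cells differed by 2.07 from WT-MPP and by 1.396 from BM HSC, and by 1.18 and 2.18 in the shared range. On the log2 of the mean TPM these differences were 0.42 and 0.41. Noc4l, a nucleolar factor of small subunit export, had a similar split, with medians of 83.4 TPM in FL HSC and 72.3 TPM in the CD11b+CD48+SK cells but 0.763 TPM in WT-MPP and 0.431 TPM in BM HSC. Its mean was 105 TPM in FL HSC, 73.7 in BM HSC, 82.1 in WT-MPP and 102 in the CD11b+CD48+SK cells. Its difference of the CD11b+CD48+SK cells against BM HSC was 1.62, and 2.33 in the shared range, whereas that from WT-MPP was 1.65 over all cells and -0.39 in the shared range. On the log2 of the mean TPM the differences were 0.47 from BM HSC and 0.32 from WT-MPP.

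Utp14a, a helicase cofactor of the processome, was the sole member at 1 or more above FL HSC in the CD11b+CD48+SK cells. It was present in 26.8% (95% interval 15.8 to 40.3%) of FL HSC, 36.1% (95% interval 20.8 to 53.8%) of BM HSC, 14.6% (95% interval 5.57 to 29.2%) of WT-MPP and 42.6% (95% interval 28.3 to 57.8%) of the CD11b+CD48+SK cells. The difference from FL HSC was 1.06, and 1.71 in the shared range, with the reservation that 11.5% of its exonic bases are shared with other genes. Nop14, which works with Emg1 and Noc4l, was present in 51.8% of FL HSC, 25% of BM HSC, 12.2% of WT-MPP and 42.6% of the CD11b+CD48+SK cells. FL HSC differed from WT-MPP in Nop14 by 2.44, or 2.33 in the shared range. Ddx10, a helicase, had a mean of 29.1 TPM in FL HSC, 37.5 in BM HSC, 36.3 in WT-MPP and 10.9 in the CD11b+CD48+SK cells. Its difference was -1.02 for the CD11b+CD48+SK cells minus BM HSC and -1.07 minus FL HSC, and -1.78 and -1.29 in the shared range. Utp15, a processome scaffold, was -0.98 in FL HSC minus BM HSC and 0.29 in the shared range, so that its direction turned. Nob1, the endonuclease that makes the final cut of the small subunit's RNA, was present in 91.1% of FL HSC, 77.8% of BM HSC, 65.9% of WT-MPP and 87.2% of the CD11b+CD48+SK cells. Rrp12, Heatr1, Utp20 and Polr1a were the members of lowest level, with means of at most 9.97 TPM in any population. The other small subunit factors (Imp4, Utp18, Wdr75, Bysl, Ltv1 and Tsr1) had means between 8.4 and 132 TPM.

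The 13 large subunit factors build and export the larger part of the ribosome. In the CD11b+CD48+SK cells all 13 were above WT-MPP (62.0% of all filtered genes), 9 of them by 1 or more (19.01%), with a median difference of 1.17. In the shared range 9 were above 0 and 4 below, with a median of 0.40, and the median on the log2 of the mean TPM was 0.093. All 13 were also higher in FL HSC than in BM HSC, as were 65.6% of all filtered genes, with a median of 1.36 and 9 at 1 or more (25.6%). In the shared range 8 were above 0 and 5 below, where 50.7% of all filtered genes were above 0, with a median of 0.43. FL HSC minus WT-MPP had 11 at 1 or more (33.9%) and a median of 1.98, which was 0.55 in the shared range.

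Nop16, a nucleolar factor of early large subunit assembly, had the largest difference of the CD11b+CD48+SK cells against WT-MPP. For Nop16, the lowest, median and highest cells were at 0, 166 and 536 TPM in FL HSC and 0, 154 and 598 TPM in BM HSC, then 0, 2.65 and 619 TPM in WT-MPP and 0, 179 and 506 TPM in the CD11b+CD48+SK cells. WT-MPP alone had a median under 10 TPM. The difference was 2.31, 0.62 in the shared range and 0.55 on the log2 of the mean TPM. Rrs1, which brings the 5S ribosomal RNA particle into the large subunit, was present in 66.1% (95% interval 52.2 to 78.2%) of FL HSC, 52.8% (95% interval 35.5 to 69.6%) of BM HSC, 36.6% (95% interval 22.1 to 53.1%) of WT-MPP and 68.1% (95% interval 52.9 to 80.9%) of the CD11b+CD48+SK cells. Its difference from WT-MPP was 2.20, or 0.40 in the shared range, and its difference from BM HSC was 1.59, or 1.33 in the shared range. On the log2 of the mean TPM these differences were 0.97 and 0.44.

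Bop1, Pes1 and Wdr12 form the PeBoW complex, which is needed for the processing of the large subunit's RNA. Wdr12 was present in 92.9% (95% interval 82.7 to 98.0%) of FL HSC, 66.7% (95% interval 49.03 to 81.4%) of BM HSC, 53.7% (95% interval 37.4 to 69.3%) of WT-MPP and 76.6% (95% interval 62.0 to 87.7%) of the CD11b+CD48+SK cells. For Wdr12, the lowest, median and highest cells were at 0, 99.2 and 404 TPM in FL HSC and 0, 67.1 and 943 TPM in BM HSC, then 0, 1.56 and 321 TPM in WT-MPP and 0, 96.2 and 340.5 TPM in the CD11b+CD48+SK cells. FL HSC were highest and WT-MPP lowest in share over all cells. FL HSC differed from WT-MPP by 2.97 for Wdr12 and 2.11 for Pes1, and by 1.88 and 1.69 in the shared range. On the log2 of the mean TPM these differences were 1.11 and 0.30. Pes1 was present in 78.6% (95% interval 65.6 to 88.4%) of FL HSC, 52.8% (95% interval 35.5 to 69.6%) of BM HSC, 36.6% (95% interval 22.1 to 53.1%) of WT-MPP and 57.4% (95% interval 42.2 to 71.7%) of the CD11b+CD48+SK cells. Bop1 was present in 58.9% of FL HSC, 52.8% of BM HSC, 41.5% of WT-MPP and 61.7% of the CD11b+CD48+SK cells, so that WT-MPP had the smallest share for all 3 over all cells. The cells of the shared range held Bop1 in 28.6% of FL HSC, 57.1% of BM HSC, 64.7% of WT-MPP and 58.3% of the CD11b+CD48+SK cells, WT-MPP then having the largest share. Wdr12 was there in 64.7% of WT-MPP and 64.3% of BM HSC. The mean of Bop1 was 75.3 TPM in FL HSC, 47.2 in BM HSC, 96.8 in WT-MPP and 85.6 in the CD11b+CD48+SK cells, but 62.7 TPM in WT-MPP without their highest cell, at 1464 TPM. FL HSC minus WT-MPP was 0.94 for Bop1 over all cells and -2.31 in the shared range.

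Nmd3, whose promoter is shown above, was present in 76.8% (95% interval 63.6 to 87.0%) of FL HSC, 58.3% (95% interval 40.8 to 74.5%) of BM HSC, 46.3% (95% interval 30.7 to 62.6%) of WT-MPP and 66.0% (95% interval 50.7 to 79.1%) of the CD11b+CD48+SK cells. The difference of the CD11b+CD48+SK cells from WT-MPP was 1.96, and 2.46 in the shared range, while on the log2 of the mean TPM it was 0.13. Nop2, whose promoter also holds the motif, was present in 66.1% (95% interval 52.2 to 78.2%) of FL HSC, 69.4% (95% interval 51.9 to 83.7%) of BM HSC, 39.02% (95% interval 24.2 to 55.5%) of WT-MPP and 68.1% (95% interval 52.9 to 80.9%) of the CD11b+CD48+SK cells. Its difference was 1.95, 1.31 in the shared range and -0.0086 on the log2 of the mean TPM, where 1 WT-MPP cell reached 1590.3 TPM. Ebna1bp2, an early assembly factor, was present in 96.4% (95% interval 87.7 to 99.6%) of FL HSC, 75% (95% interval 57.8 to 87.9%) of BM HSC, 80.5% (95% interval 65.1 to 91.2%) of WT-MPP and 97.9% (95% interval 88.7 to 99.9%) of the CD11b+CD48+SK cells. At the like number of genes it was in 85.7% of FL HSC, 78.6% of BM HSC, 100% of WT-MPP and 95.8% of the CD11b+CD48+SK cells, so that WT-MPP then had the largest share. Its difference of the CD11b+CD48+SK cells against BM HSC was 1.77, 1.21 in the shared range and 0.44 on the log2 of the mean TPM.

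Mrto4, which resembles a protein of the ribosomal stalk and holds its place during assembly, was present in 78.6% of FL HSC, 47.2% of BM HSC, 56.1% of WT-MPP and 53.2% of the CD11b+CD48+SK cells. FL HSC minus BM HSC was 2.20 for it over all cells, 0.074 in the shared range and 0.81 on the log2 of the mean TPM. Nip7, a large subunit assembly factor, had a median of 1.45 TPM in WT-MPP and 85.1 TPM in BM HSC, with a difference of -1.86, and -2.07 in the shared range. Its means were 75.4 TPM in WT-MPP and 111 TPM in BM HSC, and this difference was -0.55 on the log2 of the mean TPM. Nip7 was also -1.001 in the CD11b+CD48+SK cells minus BM HSC, and -2.44 in the shared range. Ddx18, a helicase, was present in 96.4% of FL HSC, 77.8% of BM HSC, 70.7% of WT-MPP and 83.0% of the CD11b+CD48+SK cells. Noc2l and Rrp1b had means of 71.7 to 104 TPM and 8.95 to 13.2 TPM.

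Within each population the level of the members rose with the number of genes of a cell to a differing extent. Over the 47 CD11b+CD48+SK cells, Spearman's rho between the mean log2(TPM+1) of the members and the number of genes was 0.79, and it was 0.41 in FL HSC, 0.54 in BM HSC and 0.62 in WT-MPP. These are descriptions across cells within 1 sample, in which depth enters both measures. Pairs of members had a median rho over 1128 pairs of 0.11 in FL HSC, 0.13 in BM HSC, 0.074 in WT-MPP and 0.14 in the CD11b+CD48+SK cells. Their rho was above 0 for 76.0% of pairs in FL HSC, 74.1% in BM HSC, 67.7% in WT-MPP and 81.5% in the CD11b+CD48+SK cells. Pairs of other genes are not given for reference.

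A list of 40 cell cycle genes had a median further from 0 than that of the members in all comparisons but WT-MPP minus BM HSC, where it was -0.53 against -0.65. Its median difference was 2.30 for the CD11b+CD48+SK cells minus WT-MPP and 1.06 in the shared range, where the members had 0.082. For the CD11b+CD48+SK cells minus BM HSC it was 1.49 and 0.71, and for FL HSC minus WT-MPP 2.38 and 0.70. The part of the cell cycle in the members' differences was not tested.

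A further 103 ribosome biogenesis genes were listed by name, and 102 of them were past the filter. In the CD11b+CD48+SK cells 29 (28.4%, against 19.01% of all filtered genes) were 1 or more higher and 2 (1.96%, against 5.01%) lower than in WT-MPP, with a median of 0.53, and -0.32 in the shared range. Ddx47 (2.45), Znrd1 (2.22) and Utp3 (2.13) lay at the upper end and Pwp2 (-1.17), Wdr36 (-1.09) and Taf1b (-0.75) at the lower. Against BM HSC 14 (13.7%) were higher, near the 13.4% of all filtered genes, and 7 (6.86%) lower, under their 11.8%, with a median of 0.024, and -0.16 in the shared range. Nop9 (1.66), Znrd1 (1.63) and Dcaf13 (1.57) were at the upper end and Wdr36 (-1.67), Gnl3l (-1.44) and Las1l (-1.16) at the lower. Against FL HSC 1 (0.98%, against 4.02%) was higher, Wdr46 (1.45), and 16 (15.7%) were lower, under the 20.9% of all filtered genes, with a median of -0.37, and -0.23 in the shared range. Cirh1a (-2.49), Taf1b (-2.43) and Aatf (-2.13) lay lowest. FL HSC had 34 genes (33.3%, against 25.6% of all filtered genes) 1 or more above BM HSC and 3 (2.94%, against 5.44%) below, Gnl3l (-1.86), Rrn3 (-1.58) and Nol6 (-1.21), with Tsr3 (2.49), Exosc7 (2.0003) and Exosc2 (1.96) at the upper end. Above WT-MPP, FL HSC had 50 genes (49.02%, against 33.9%), led by Ddx47 (2.98), Exosc4 (2.88) and Tsr3 (2.80), and 1 (0.98%, against 3.08%) below, Taf1a (-1.05). WT-MPP had 20 genes (19.6%, against 14.49%) 1 or more below BM HSC, the furthest being Cd3eap (-2.21), Sbds (-1.91) and Taf1d (-1.85), and 1 (0.98%, against 2.67%) above, Dcaf13 (1.28). Over all cells the median was 0.43 for FL HSC minus BM HSC, 0.93 for FL HSC minus WT-MPP and -0.41 for WT-MPP minus BM HSC. These became 0.26, -0.0032 and 0.14 in the shared range.

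Myc, the activator named above, was present in 53.6% (95% interval 39.7 to 67.0%) of FL HSC, 97.2% (95% interval 85.5 to 99.9%) of BM HSC, 100% (95% interval 91.4 to 100%) of WT-MPP and 100% (95% interval 92.5 to 100%) of the CD11b+CD48+SK cells. For Myc, the lowest, median and highest cells had 0, 34.6 and 1377 TPM in FL HSC and 0.374, 264 and 2296 TPM in BM HSC. The WT-MPP cells had 1.12, 343 and 1751 TPM, and the CD11b+CD48+SK cells had 1.24, 599.7 and 3892 TPM. The CD11b+CD48+SK cells had the highest Myc median and FL HSC the lowest. Its difference was 1.37 for the CD11b+CD48+SK cells minus WT-MPP and -3.48 for FL HSC minus WT-MPP. Mycn, its close relative, had its highest mean in FL HSC and its lowest in the CD11b+CD48+SK cells, at 359 TPM in FL HSC, 287 in BM HSC, 175 in WT-MPP and 36.8 in the CD11b+CD48+SK cells. It was present in 96.4% (95% interval 87.7 to 99.6%) of FL HSC, 97.2% (95% interval 85.5 to 99.9%) of BM HSC, 82.9% (95% interval 67.9 to 92.8%) of WT-MPP and 34.04% (95% interval 20.9 to 49.3%) of the CD11b+CD48+SK cells. Mycl1 was listed at 1 TPM or more in no cell, an upper limit of 5.36% of FL HSC, 8.33% of BM HSC, 7.32% of WT-MPP and 6.38% of the CD11b+CD48+SK cells (3 cells of each) that limits cells listed with the gene and not cells that express it. Max, the partner of all of these, had a mean of 81.7 TPM in FL HSC, 73.7 in BM HSC, 106 in WT-MPP and 41.4 in the CD11b+CD48+SK cells.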

How the data were processed

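Single sorted cells of 4 populations were amplified with the Discover-sc WTA Kit and sequenced, 1 library per cell. Reads were aligned by the authors using HISAT2 2.1.0, and the submitters' processing notes also name bcl2fastq, SAMtools 0.1.19 and the mm10 build. The deposited values are TPM, estimated by the authors with StringTie 1.3.4 and scaled to the same sum in every cell. The gene annotation behind them is not given in the sources used here. The table has 181 columns of cells, of which 180 were used, and the remaining 1, whose name follows that of WT-MPP but matches no sample, was left out. No cell was filtered out, and doublets were not sought as every library held a single sorted cell.

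Software was Python 3.11.15, scipy 1.17.1, pandas 2.3.3, numpy 2.4.6 and matplotlib 3.10.9. Means of log2(TPM+1) were taken over cells. The filter kept a gene where 10% or more of cells in any population reached 1 TPM. A difference of 1 or more on the log2 scale was counted for the members and for all filtered genes. No test between populations was made, since no animal is named and cells are not replicates. The 48 members, the further ribosome biogenesis list, the cell cycle and marker lists and the rule for named genes were chosen with earlier results of these data known. The rule allowed any member to be named, with full values for the 5 of highest mean TPM, the largest and smallest difference of each role group and the 5 largest and 5 smallest differences of each comparison. Of the further list, the 3 at either end of each comparison were named. Other members and Max were given values in addition. Alternatives covered the pseudocount, the averaging, the detection threshold, the filter, the scaling of cells and the number of genes per cell. The procedure was tested on FL HSC cells shuffled into groups, with genes held by most cells raised in 1 group. That test raised no sparse genes and built in no difference in genes per cell between groups, so it does not bear on these. The myeloid, mast or basophil, B, T, macrophage, megakaryocyte and adult HSC lists were also read, and their summed levels are given at the end of the closing section. The correlation of the members with the cell cycle list within populations is not reported here.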

Additional observations from a re-analysis of the deposited data

How the results depend on the processing

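The shared range, the size factors and the omission of WT-MPP replicate 12 were chosen after seeing the data. The cells of 4443.5 to 4620 genes were only 21, 8 CD11b+CD48+SK cells, 4 WT-MPP, 2 BM HSC and 7 FL HSC, so values from them rest on few cells. TPM keeps no depth, depth and RNA content cannot be told apart in the number of genes per cell, and 1 sample per population gives no error between animals. No paired analysis was possible because no result comes from a test, and a replicate number only names a cell.

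The letters A, B and C stand for the CD11b+CD48+SK cells minus WT-MPP, minus BM HSC and minus FL HSC, D and E for FL HSC minus BM HSC and minus WT-MPP, and F for WT-MPP minus BM HSC, and a median, a number higher or lower (by 1 or more) and a level (among cells with the gene) refer to the 48 members. The percentage after a number is the share of all filtered genes past the same size under that setting. The values are those that moved by over 1.5 times or changed sign, and the cause of each was not tested. With the reported settings the levels were 0.39 for A, 0.052 for B, -0.18 for C, 0.20 for D, 0.45 for E and -0.34 for F. With a pseudocount of 0.1, these were numbers higher of 13 (21.4%) for B, 4 (8.7%) for C and 1 (6.25%) for F, and numbers lower of 2 (11.9%) for D and 23 (25.7%) for F. With a pseudocount of 10, these were medians of 0.58 for A, 0.16 for B, -0.14 for C, 0.26 for D, 0.67 for E and -0.34 for F, numbers higher of 7 (6.95%) for A, 0 (4.95%) for B, 0 (1.65%) for C, 3 (9.61%) for D and 15 (14.3%) for E, and numbers lower of 0 (1.58%) for A, 0 (4.03%) for B, 1 (7.12%) for C and 3 (3.41%) for F. On the log2 of mean TPM plus 1, these were medians of 0.10 for A, -0.10 for B, -0.035 for C, -0.13 for D, 0.12 for E and -0.23 for F, numbers higher of 3 (10.3%) for A, 2 (9.78%) for B, 2 (8.23%) for C, 0 (11.8%) for D, 5 (14.8%) for E and 2 (11.7%) for F, and numbers lower of 2 (24.1%) for A, 6 (27.7%) for B, 1 (19.5%) for C, 4 (19.3%) for D, 1 (17.8%) for E and 5 (15.6%) for F. On that scale without the highest cell of each gene, these were medians of 0.30 for A, 0.025 for B, -0.052 for C, -0.027 for D, 0.26 for E and -0.32 for F, numbers higher of 7 (13.9%) for A, 3 (12.6%) for B, 2 (7.82%) for C, 1 (17.2%) for D, 5 (21.6%) for E and 1 (11.4%) for F, and numbers lower of 2 (19.9%) for A, 5 (25.1%) for B, 2 (23.4%) for C, 2 (15.6%) for D, 1 (13.2%) for E and 6 (17.7%) for F. With cells scaled by median ratio, these were numbers higher of 2 (4.61%) for C, and numbers lower of 1 (10.6%) for B. In cells of 4443.5 to 4620 genes, these were medians of 0.26 for A, 0.78 for B, -0.067 for C, 0.10 for E and 0.56 for F, numbers higher of 12 (22.99%) for A, 20 (25.9%) for B, 6 (16.8%) for C, 12 (27.8%) for E and 21 (25.8%) for F, numbers lower of 8 (21.4%) for A, 13 (29.3%) for B, 11 (26.5%) for D and 7 (19.9%) for E, and levels of -0.45 for B, -0.52 for C and -0.023 for F. In cells of the shared range, these were medians of 0.082 for A, 0.10 for B, 0.019 for C, -0.037 for D, 0.19 for E and -0.16 for F, numbers higher of 6 (10.999%) for A, 7 (11.04%) for C, 10 (19.5%) for D, 13 (18.5%) for E and 7 (15.1%) for F, numbers lower of 5 (15.8%) for A, 7 (17.7%) for B, 9 (15.7%) for D and 10 (14.8%) for E, and levels of 0.11 for B, -0.40 for C, 0.45 for D, 0.28 for E and -0.0076 for F. With size factors, these were medians of 0.14 for B and -0.37 for C, and numbers higher of 0 (3.26%) for C. With detection from 5 TPM, these were levels of -0.41 for A, -0.31 for B, 0.12 for C, -0.36 for D, -0.45 for E and 0.075 for F. Of the differences of 1 or more that the naming rule chose, those that changed sign were for FL HSC minus BM HSC, of Dkc1 to -0.42 on the log2 of mean TPM plus 1, -0.14 without the highest cell and -0.38 in the shared range, and of Nop56 to -0.44 in the shared range. In that range Gar1 in the CD11b+CD48+SK cells minus WT-MPP was -0.30 and Polr1e in WT-MPP minus BM HSC was 0.26. Other differences of 1 or more given above also changed sign. In the shared range Noc4l became -0.39 for A and Nolc1 -1.08 for E. On the log2 of mean TPM plus 1 Nop2 became -0.0086 for A. Without WT-MPP replicate 12, the median was 0.96 for A, 1.27 for E and -0.59 for F, the numbers higher were 23, 29 and 0 and the numbers lower 1, 0 and 12, and all 24 named differences of 1 or more that use WT-MPP stayed within 1.5 times. All 48 members passed the filter, so leaving it out could not move their values, but the median over all genes became 0.032 for A, 0 for B, -0.14 for C, 0.11 for D, 0.23 for E and -0.088 for F. Of the 48 differences of 1 or more among those the naming rule chose, scaling by median ratio or by size factors moved none by over 1.5 times, a pseudocount of 0.1 moved 8, a pseudocount of 10 moved 42, the log2 of mean TPM plus 1 moved 41 and the shared range 27, with 4 more reversed. Of all 288 differences of the members, 96 changed sign in the shared range and 74 on the log2 of mean TPM plus 1.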

Other observations

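The marker lists of other blood cells, read to describe the sorted cells, had these medians of summed level over cells. The 15 myeloid markers were at 1707 TPM in FL HSC, 1252 in BM HSC, 1523 in WT-MPP and 2041 in the CD11b+CD48+SK cells. Of these markers, 6 were present in 10% of FL HSC, 4 in 10% of BM HSC, 3 in 10% of WT-MPP and 9 in 10% of the CD11b+CD48+SK cells. In no cell were 3 of them in FL HSC, 7 in BM HSC, 7 in WT-MPP and 4 (Elane, Lyz1, Csf1r and Cebpe) in the CD11b+CD48+SK cells. The 6 mast or basophil markers in the table, of 9 listed, were at 120.03, 358, 101 and 223 TPM in the same order, and the 7 megakaryocyte markers at 506, 995, 433 and 4.0999 TPM. Of 10 B cell markers 6 were in the table, at 209, 193, 2.72 and 111 TPM, and of 10 T cell markers 6 were in the table, at 0.116, 0, 0 and 0.447 TPM. The 7 macrophage markers in the table, of 8 listed, had a median of 0 TPM except in FL HSC, at 40.1 TPM. The 8 markers of adult HSC were at 403 TPM in FL HSC, 627 in BM HSC, 307 in WT-MPP and 82.7 in the CD11b+CD48+SK cells.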
